A study of Drosophila melanogaster with 2 samples.

Results

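Vesicle trafficking and membrane fusion genes were examined in whole adult female Drosophila melanogaster, as the ratio between RNA of ethanol-sprayed and of water-sprayed flies. The members were chosen by name: a gene entered if its current symbol began with 1 of 16 prefixes, which are AP-1, AP-2, Rab, Vps, Sec with a digit, Syx, Snap, Arf, Arl, Exo with a digit, Snx, Cog, COP, Vamp, Syt and nSyb. This gave 31 of the 2377 genes that could be named. AP-2, Syx, COP, Vamp and Syt matched 0 named genes each, so the endocytic adaptor AP-2, the syntaxins and the synaptotagmins are not described. Spots with no symbol or with several were not searched. Ethanol flies received a mist of 99% ethanol and water flies one of distilled water, each 2 mL from a Potter's tower, a device that settles an even spray on insects. All flies were Oregon-R wild-type females aged 4 to 10 days, and each RNA extract pooled about 240 of them. Both extracts of an array had their RNA pellets washed in 80% ethanol, which is a step of the purification and not a treatment. Flies were sampled 4 h after the spray according to the series text and 6 h after it according to the label of replicate 1, while replicate 2 has no time in its label. Each of the 2 spotted arrays compared 1 ethanol extract with 1 water extract, with ethanol in Cy3 on array 1 and in Cy5 on array 2.

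Proteins and membrane move between compartments of the cell in vesicles. Coats and adaptors select cargo and bend the membrane, small GTPases of the Rab and Arf families mark each compartment, tethers capture the arriving vesicle, and SNARE proteins on both membranes zip together to fuse them. The same machinery inserts new protein into the plasma membrane, releases transmitter at synapses, recycles receptors and feeds lysosomes. Most of these genes are used in every cell, whereas nSyb and Rab3 serve mainly neurons.

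The deposited value is a signed log ratio for each spot, read as log2, so 0 is equal signal from both extracts and 1 is a 2-fold difference. No source used here says which extract is on top of the ratio. Values are therefore called positive or negative, with no treatment named as the higher one. Means were computed as the arrays were deposited, and again with array 2 turned in sign, which is right if the ratio is Cy5 over Cy3. Where a gene is given 2 ratios, the first is array 1 and the second array 2. A ratio holds no expression level, so neither the tissue nor the abundance of any of these mRNAs could be checked. In extracts of whole flies, fewer cells of a type and less RNA per cell cannot be told apart.

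None of the 31 trafficking genes passed the test for a difference between ethanol and water. At a limma adjusted p under 0.05, 0 of 31 passed (Benjamini-Hochberg over 2377 genes), where the share over all genes was 0%, and the lowest adjusted p among the members was 0.996. At an unadjusted limma p under 0.05 the count was again 0 of 31, against 5.72% of all genes, and with array 2 turned in sign it was 1 of 31, against 4.0%. The one gene was Sec15, with an adjusted p of 0.942 there. A ratio of at least 1.2-fold (0.263 in log2) with the same sign on array 1 and array 2 was found for 0 of 31, against 6.06% of all genes, and with array 2 turned for 1 of 31, against 6.02%. The count at 1.5-fold was also 0, against 0.126%. With 2 arrays the smallest two-sided p of an exact sign permutation is 0.5, and the test draws on the variance limma pools over genes.

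**Figure D1:**
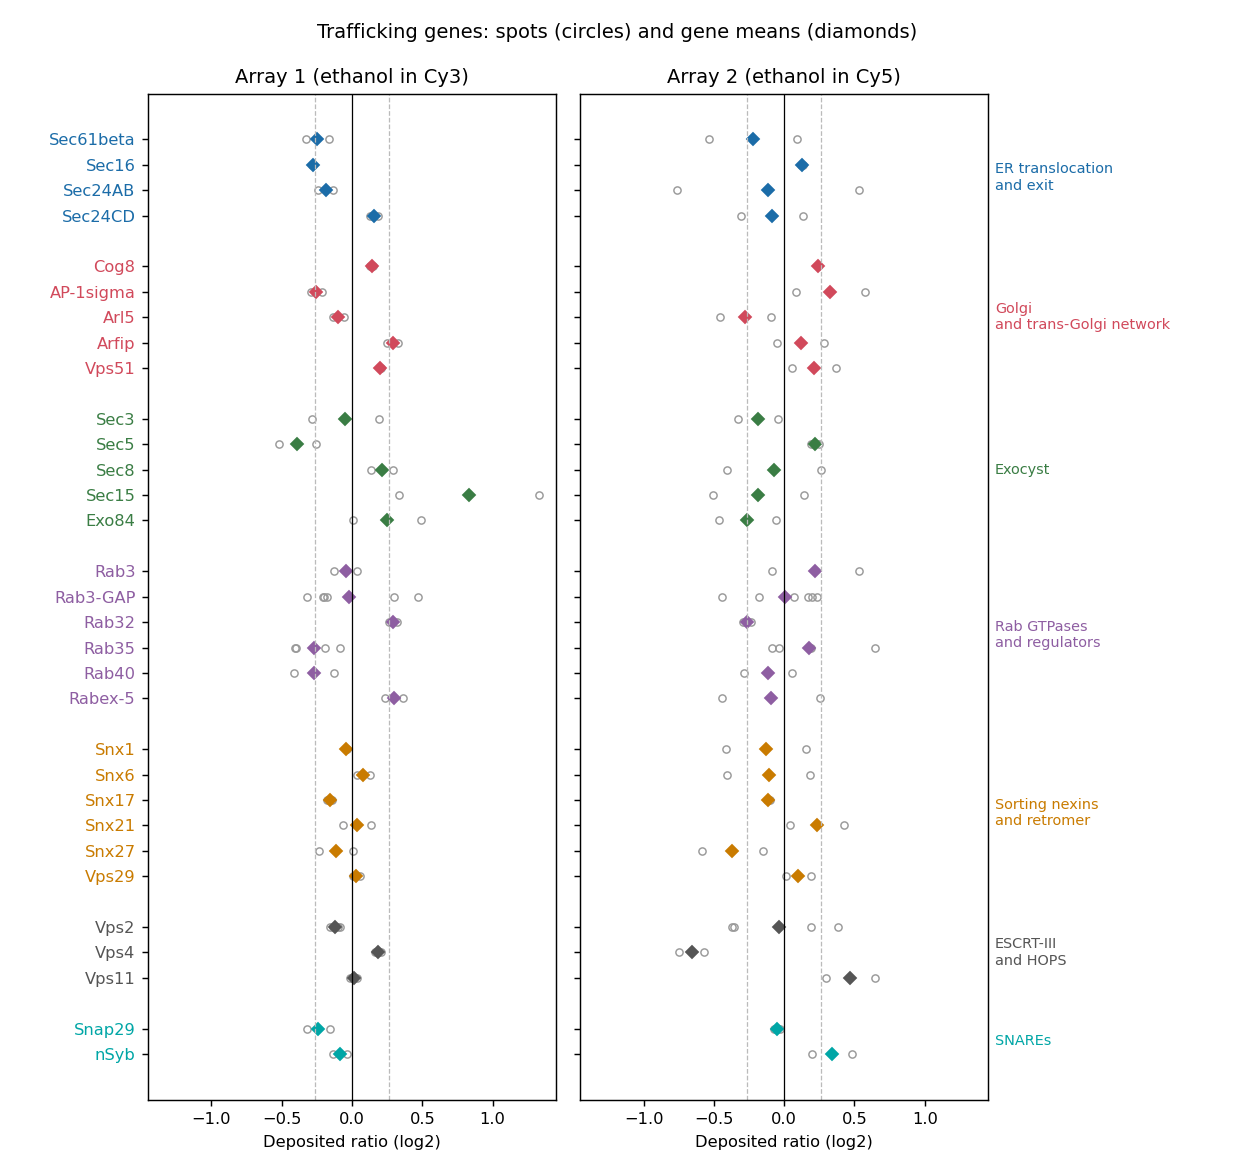
Deposited log2 ratio of each trafficking gene on array 1 (left) and array 2 (right), with genes grouped by trafficking step. Circles are single spots, diamonds the gene's mean on that array, and dashed lines mark 1.2-fold. Sec15 stands apart on array 1 at 0.83, and Vps4 on array 2 at -0.66, while most genes lie inside the dashed lines.

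On each array the members scattered about 0, with a spread close to that of all genes. Their median ratio was -0.040 on array 1 and -0.070 on array 2, against 0.0089 and 0.010 over all genes. The interquartile range of the members was -0.17 to 0.17 on array 1, where that of all genes was -0.17 to 0.21. On array 2 it was -0.16 to 0.19, where that of all genes was -0.17 to 0.18. The median of the members' means was -0.0078, beside 0.0066 for all genes, and became -0.015 with array 2 turned, beside 0.0023. On array 1, 8 of 31 members were 1.2-fold or more from equality (35.5% of all genes), and on array 2, 7 were (32.4%). Only Sec15 on array 1 and Vps4 on array 2 were 1.5-fold or more (0.585) from equality, and neither was so on the other array. Such ratios were found for 6.14% of all genes on array 1 and for 4.75% on array 2.

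About as many members kept their sign from one array to the other as changed it. Of the 31 members, 16 had one sign on both arrays, 6 positive and 10 negative, which is 51.6% against 50.7% of all genes. The other 15 had opposite signs, and with array 2 turned these have one sign, 8 as positive and 7 as negative on array 1. Across the 31 genes the ratios of the arrays had a Pearson r of -0.23 and a Spearman rho of -0.16, against 0.026 and 0.0034 over all genes, and all of these change sign with array 2 turned. These describe genes of the same pair of hybridisations, which are not independent replicates.

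**Figure D2:**
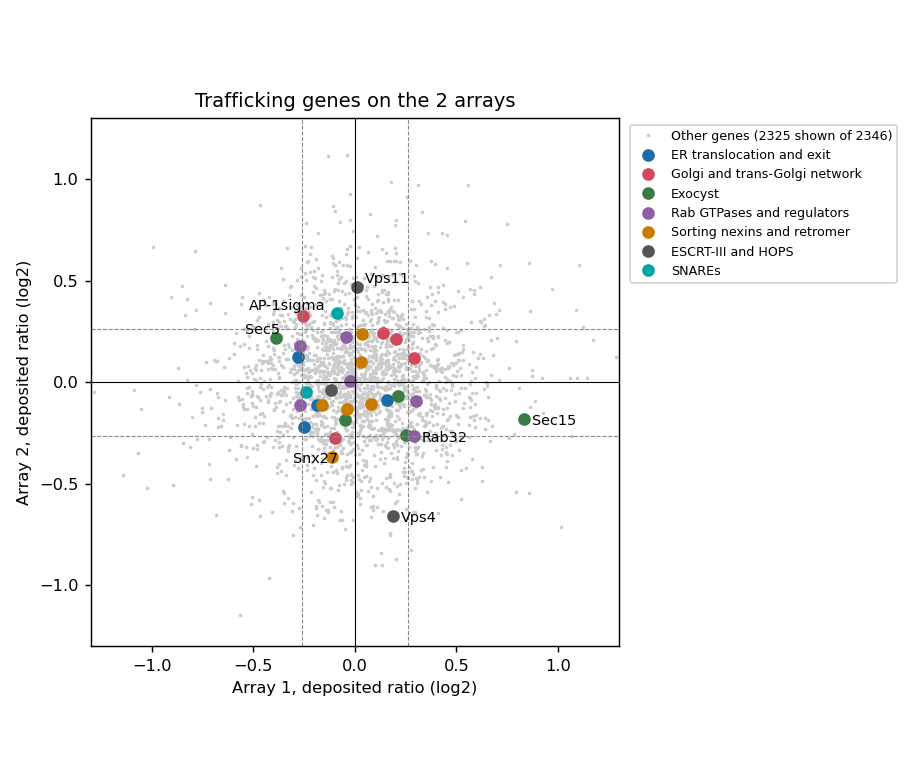
Log2 ratio on array 1 (x axis) against array 2 (y axis) for trafficking genes, coloured by step, and for other genes in grey, with 2325 of 2346 inside the plotted range. Dashed lines mark 1.2-fold. Rab32 is the one coloured point beyond them on both axes, and its signs are opposite.

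Secretion begins at the endoplasmic reticulum (ER), where 4 members act. Sec61beta, a subunit of the channel that passes new proteins into the ER, was at -0.25 on array 1 and -0.22 on array 2, so both arrays were negative as deposited, although its array 2 spots read 0.093 and -0.53. Sec16, the scaffold of ER exit sites, was at -0.28 and 0.12. Its duplicate spots differed by only 0.0086 on array 1 and 0.016 on array 2, so the spots repeated within each array while the arrays had opposite signs. Sec24AB and Sec24CD encode the cargo-binding subunits of COPII, the coat of vesicles that leave the ER. Sec24AB was at -0.19 and -0.11, although its spots on array 2 read -0.76 and 0.53. Sec24CD was at 0.16 and -0.089. The means of the 4 genes ran from -0.23 to 0.033.

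At the Golgi and the trans-Golgi network, 3 of 5 members were positive on both arrays as deposited (26.6% of all genes) and 1 was negative on both (24.1%). With array 2 turned, only AP-1sigma has one sign (49.3% of all genes). Cog8, a subunit of the tether that holds vesicles at Golgi membranes, was at 0.14 and 0.24. Vps51, a subunit of the GARP and EARP tethers for vesicles that return from endosomes, was at 0.20 and 0.21. Arfip, an arfaptin that binds Arf-family GTPases on curved membrane, was at 0.29 and 0.12. The Arf-like GTPase Arl5 was at -0.098 and -0.28. AP-1sigma, the small subunit of the clathrin adaptor AP-1, was at -0.25 and 0.33. The means of these genes lay between -0.19 and 0.21, and with array 2 turned those of Cog8 and Vps51 were -0.051 and -0.0055.

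The exocyst is a tether of several subunits that brings secretory vesicles to the plasma membrane. Of its subunits 5 were among the named genes, and they did not share a direction. Sec15, the subunit that binds the GTPase Rab11, had the largest mean of all members, at 0.33 ± 0.72 (SD, n = 2). It was at 0.83 on array 1 and -0.18 on array 2. The array 1 value rested on unequal spots, which read 0.33 and 1.33, and the array 2 spots read -0.51 and 0.14. As deposited, its limma p was 0.175 unadjusted and 0.996 adjusted. With array 2 turned the mean was 0.51, with a 95% confidence interval of 0.053 to 0.96 and a limma p of 0.0319 unadjusted and 0.942 adjusted. Sec5, which binds the GTPase Ral in mammals, was at -0.39 and 0.22, the most negative member on array 1. Sec8 was at 0.21 and -0.070, and Exo84 at 0.25 and -0.26. Sec3, which binds membrane lipids in yeast, was at -0.048 and -0.19 with the same sign on both arrays as deposited (50.7% of all genes). Each of the other 4 subunits has one sign on both arrays only with array 2 turned (49.3%). Within array 1 the subunits thus spanned -0.39 to 0.83, and within array 2 -0.26 to 0.22.

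Of 6 Rab GTPases and regulators, 1 had the same sign on both arrays as deposited (50.7% of all genes). The other 5 do with array 2 turned (49.3%). That gene was Rab40, a Rab with a SOCS box, at -0.27 and -0.11. Rab32, which serves pigment granules and other lysosome-related organelles, passed 1.2-fold on each array but with opposite signs, as did 6.02% of all genes. Its spots read 0.32 and 0.26 on array 1 and -0.24 and -0.29 on array 2, so each array gave a repeatable value. The mean was 0.012 ± 0.39 (SD, n = 2), or 0.28 with array 2 turned, with a limma p of 0.953 and 0.153 (adjusted 0.996 and 0.942). Rab35, a GTPase of endocytic recycling, was at -0.27 and 0.18, and Rabex-5, the exchange factor of Rab5, at 0.30 and -0.094. Rab3, the GTPase of synaptic vesicles, was at -0.046 and 0.22. Rab3-GAP, named for a complex that acts on Rab3, was at -0.022 and 0.0065. That near-zero ratio averaged 3 clones which read -0.19, 0.39 and -0.26 on array 1 and 0.13, -0.14 and 0.025 on array 2, so its clones lay on both sides of 0 on each array.

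Sorting nexins bind endosomal membrane and, with retromer, send cargo back from endosomes. The 6 members of this group spanned -0.16 to 0.081 on array 1 and -0.37 to 0.24 on array 2. Snx1 and Snx6, whose mammalian homologues pair with retromer, were at -0.040 and -0.13 and at 0.081 and -0.11. Vps29, a core subunit of retromer, was at 0.032 and 0.10. Snx17 was at -0.16 and -0.11, with spots that differed by at most 0.040 on either array. As deposited, Snx27 had the second largest mean size of the members, at -0.24 ± 0.18 (SD, n = 2, limma adjusted p = 0.996), but its mean was 0.13 with array 2 turned. It was at -0.12 on array 1 and -0.37 on array 2. The spots behind it read -0.24 and 0.0052 on array 1 and -0.15 and -0.59 on array 2. In mammals Snx17 and Snx27 return receptors to the cell surface. Snx21 was at 0.035 and 0.24.

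On the way to the lysosome, ESCRT-III pinches vesicles into the endosome and the HOPS and CORVET tethers prepare fusion. Vps4, the ATPase that takes ESCRT-III apart, was at 0.19 on array 1 and -0.66 on array 2. Its spots agreed within 0.039 on array 1 and 0.17 on array 2. The mean was -0.24 ± 0.60 (SD, n = 2), and 0.42 with array 2 turned, with a limma p of 0.294 and 0.0535 (adjusted 0.996 and 0.942). Vps2, an ESCRT-III subunit, was at -0.12 and -0.038. Its 2 clones agreed on array 1, at -0.12 each, but read 0.29 and -0.36 on array 2. Vps11, a core subunit shared by HOPS and CORVET, was at 0.011 and 0.47, and its mean of 0.24 ± 0.32 (SD, n = 2) was the third largest in size as deposited (limma adjusted p = 0.996). The mean was -0.23 with array 2 turned. Its array 2 spots were both positive, at 0.30 and 0.64, while those of array 1 were at 0.038 and -0.016.

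The prefixes matched 2 SNARE genes, whose products act at different membranes. Snap29, which acts in the fusion of autophagosomes with lysosomes, was at -0.24 and -0.050. nSyb, the neuronal synaptobrevin of synaptic vesicles, was at -0.086 and 0.34. Neuronal markers, nSyb among them, were measured for 5 genes. On array 1 they spanned -0.34 to 0.14 with a median of -0.095, and on array 2 they spanned -0.093 to 0.34 with a median of 0.26. Rab3 had the signs of these medians on both arrays. nSyb did too, but it is 1 of the 5 genes behind them, and the list went both ways on each array. The part of neuronal content in the ratios of Rab3 and nSyb was not tested. The 5 genes of male glands and testis had medians of 0.16 and 0.21 and went both ways, spanning -0.38 to 0.66 on array 1 and -0.45 to 0.44 on array 2. All flies were females, so these ratios are not read as male tissue, and their signal over background was not used here. Among them Acp36DE (mean 0.49) and Mst84B (mean -0.42) had an unadjusted limma p under 0.05, at 0.0218 and 0.0435 (adjusted 0.716 and 0.823). The other genes of this list did not, and 5.72% of all genes did. The 6 muscle genes had medians of -0.44 and 0.16, within -0.85 to 1.29 on array 1 and -0.28 to 0.47 on array 2. The ovary list had only yl, at -0.091 and -0.18.

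**Figure D3:**
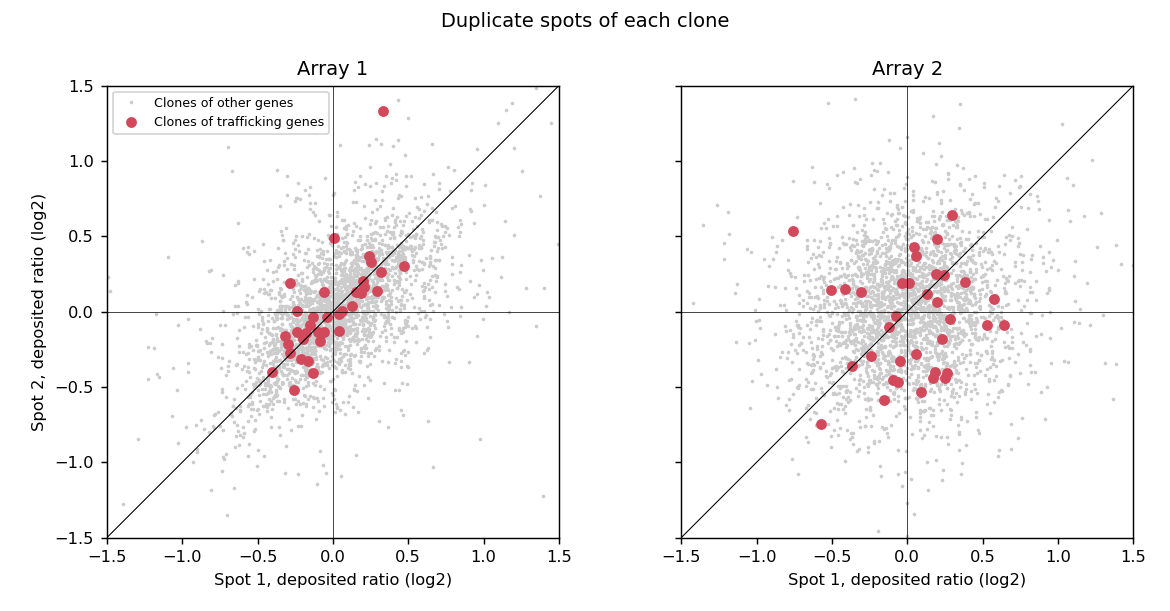
Log2 ratio of the first spot of each clone (x axis) against its second spot (y axis) on array 1 (left) and array 2 (right). Red points are the 35 clones of trafficking genes and grey points are clones of other genes within the plotted range. Most red points lie near the diagonal on array 1, apart from Sec15 near the top, Exo84 and Sec3, and they spread about it on array 2.

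Each clone was spotted in duplicate, which gives the precision within an array. The 31 genes were carried by 35 clones: 28 genes had 1 clone, 2 had 2 clones and 1 had 3. On array 1 the duplicate spots had one sign in 30 of 35 clones (85.7%, against 71.1% of all named clones), and they differed by a median of 0.090 (0.17 over all named clones). On array 2 the spots had one sign in 20 of 35 clones (57.1%, against 53.2%), with a median difference of 0.35 (0.33 over all). Spots more than 0.5 apart were found in 1 member clone on array 1, that of Sec15, against 367 of all 2833 named clones, and in 10 on array 2, against 887. The member ratios were thus more repeatable within array 1 than within array 2. No spot of a member exceeded 3 in size, and 0.353% of all named spots did.

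The intervals give the range that limma assigns to each mean of the deposited ratios. The 95% confidence interval of a member's mean reached a median of 0.41 to either side. With both arrays as deposited, the intervals of the members lay between -0.70, for Vps4, and 0.81, for Sec15. Read as log2, all 31 were inside 2-fold in either direction, as were 97.7% of all genes, and all 31 stayed inside it with array 2 turned, against 98.1%. A change of 1.5-fold was outside the interval for 21 of 31 members, against 60.3% of all genes, and for 20 with array 2 turned, against 58.4%. If the values are natural logs, the interval lies inside 2-fold for 29 of 31 members, all but Sec15 and Vps4, and for 28 with array 2 turned, where Sec5 also reaches past it. These bounds hold for the deposited ratios with the spread limma assigns, and signal over background was not used here. They are not bounds on the change of mRNA in the flies. On array 2 the duplicate spots had one sign in only 57.1% of member clones (53.2% of all named clones). Over all genes the arrays had a Pearson r of 0.026.

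**Figure D4:**
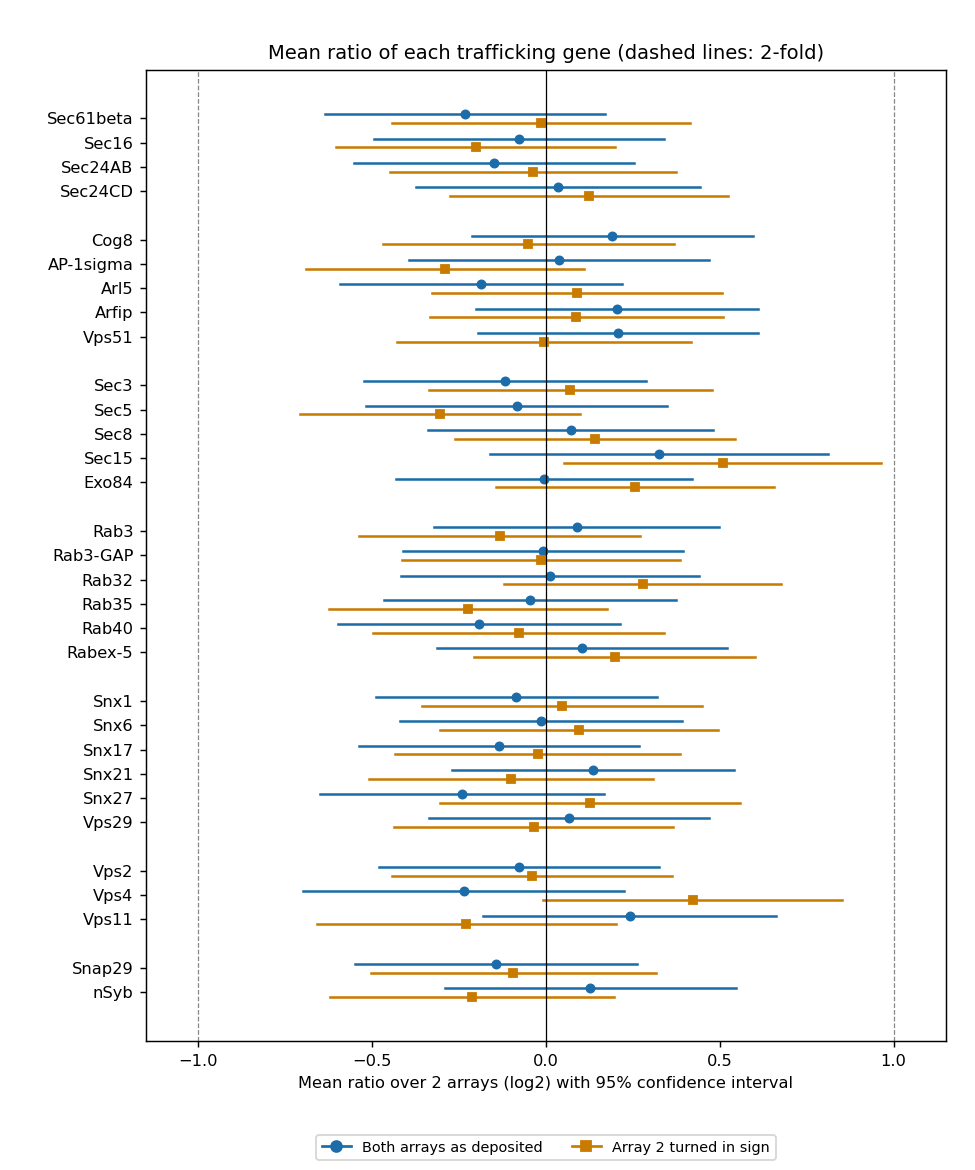
Mean log2 ratio of each trafficking gene over the 2 arrays (points) with its 95% confidence interval from limma (bars), with both arrays as deposited (blue) and with array 2 turned in sign (orange). With values read as log2, every bar lies within the dashed lines at 2-fold, and only the orange bar of Sec15 excludes 0.

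Other genes of the same pathways, whose names lack the prefixes, were taken from a hand-written list of coats, GTPase regulators, tethers, fusion factors, ER cargo factors and proton pump subunits. Of these 36 measured genes, 0 passed a limma adjusted p of 0.05, and 6 had an unadjusted p under 0.05, which is 16.7%, against 5.72% of all genes. Of the 6, 3 were positive (2.9% of all genes) and 3 negative (2.82%). With array 2 turned the count was 1, which is 2.78% against 4.0%. The golgin GCC185, a tether of the trans-Golgi network, was positive at 0.55 and 0.59, although its array 1 spots differed by 0.71. The endosomal protein gene rush was negative at -0.72 and -0.48, as was Cnx99A, an ER calnexin, at -0.53 and -0.37. The ESCRT-associated gene mop was at 0.38 and 0.44, and Synd, a membrane-bending syndapin, at -0.21 and -0.70. Asap, an Arf GTPase-activating protein, was at -0.041 and 1.12. With array 2 turned it was the one gene counted, at a mean of -0.58 (adjusted p = 0.942 in limma). The lowest adjusted p among the 36 genes was 0.484, for rush (limma). In this list 5 of 36 genes reached 1.2-fold on each array with the same sign as deposited, against 6.06% of all genes. The count was 1 with array 2 turned, against 6.02%.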

How the data were processed

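The members, steps and gene lists were chosen with earlier results of these data known. The deposited table holds a signed log ratio for every spot of each array, taken as log2. How the authors analysed the images, corrected background and normalized, and which log base and direction they used, is not given in the sources used here. Per the labels' protocols, each extract gave 80 µg of total RNA for direct labelling. Of 16896 spots, 5666 had 1 gene symbol in the platform annotation, 152 had several and 11078 had none, and only the first were used. Symbols were updated through Entrez identifiers, which matched for all 2377 genes. Adjacent spots were averaged to a clone, then clones to a gene. The mean ratio was tested against 0 over both arrays with lmFit and eBayes (limma 3.58.1, R 4.3.3), with Benjamini-Hochberg adjustment over all 2377 genes. The test was also run on simulated data. The outcome is not given here, so nothing is claimed from it about finding changes of 1.2-fold to 1.5-fold. A dye term leaves no residual degree of freedom. The arrays are biological replicates per the series text, and their number limits the precision. Every member is named. Spot values and statistics are given for members with an unadjusted p under 0.05 under either coding, those of 1.2-fold on both arrays and the 3 of largest mean. Spots of Sec61beta, Sec24AB, Sec16, Snx17, Vps2, Vps4 and Rab3-GAP were added after their values were seen, as was the p of Vps4. Of 235 names in the hand-written list, older spellings included, 36 were among the named genes and were not members. Of these the 3 of largest mean and those with an unadjusted p under 0.05 are named. No sequences of the clones or genes were used here.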

Additional observations from a re-analysis of the deposited data

How the results depend on the processing

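Calls at a limma adjusted p of 0.05 numbered 0 among the members with array 2 turned, other centring or scaling, spot medians, robust eBayes, duplicate spots kept, natural logs, wide or discordant clones left out, or Sec61beta left out. Matching prefixes without regard to case found the same 31 genes. The count at an unadjusted p under 0.05 was 1 with array 2 turned. The count at 1.2-fold with one sign was then 1, against 6.02% of all genes. It was 2 with values read as natural logs, where the share over all genes was not computed. A single array has no second sign to match. In either sign, 8 members reached 1.2-fold on array 1 (35.5% of all genes) and 7 on array 2 (32.4%). The median of the means was -0.032 among the 23 genes with clones whose spots differ by at most 0.5, and -0.070 to -0.040 on 1 array alone. With array 2 turned, the mean changed sign for 15 members: AP-1sigma (-0.29), Arl5 (0.089), Cog8 (-0.051), Exo84 (0.26), nSyb (-0.21), Rab3 (-0.13), Sec3 (0.070), Snx1 (0.046), Snx6 (0.095), Snx21 (-0.10), Snx27 (0.13), Vps4 (0.42), Vps11 (-0.23), Vps29 (-0.035) and Vps51 (-0.0055). Scaling the arrays to a common spread turned Exo84 (0.0068). These follow from the construction of each alternative. With 1 array no test could be made. The test against 0 is already paired, because each ratio pairs the ethanol and water RNA of its array, and no further pairing was added. What signal over background would limit is not known, since no intensities were used.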
